A study of Malus domestica with 18 samples.

Results

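The genes described here are the chloroplast protein genes in the deposited apple table, that is, the genes whose best protein match carries the word chloroplastic, photosystem, chlorophyll a-b or thylakoid in its description. A set of 10 listed genes, 9 of which carry one of these words, was left out, and 164 of the 2856 genes in the table remained. The rule reads descriptions alone, but it was set with earlier results of these data known. All genes in the table had themselves been selected by the authors for a difference between bagged and unbagged fruit. The skin of "Golden Delicious" fruit was sampled at 30, 60 and 150 days after flowering (DAF30, DAF60 and DAF150) for RNA-seq, and the groups with bagged fruit are T1, T2 and T3 and those with unbagged fruit CK1, CK2 and CK3. T fruit had been covered at DAF20 with paper bags of a double layer that lets no light through, and CK fruit stayed exposed. All groups are the same cultivar and tissue, and each of the 6 groups has 3 libraries, each from the mixed peel of several fruits. Trees are given as the replicates in the study's methods. It is not stated whether a tree was sampled at more than 1 stage or gave both T and CK fruit. The p-values thus measure the spread between these libraries. In whole skin, fewer cells of a type and less RNA per cell cannot be told apart.

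Chloroplasts capture light in antenna proteins that hold chlorophyll and pass the energy to photosystem II and photosystem I in the thylakoid membrane, and the electrons that leave photosystem I reduce NADP for the Calvin cycle in the stroma. Nearly all of their proteins are encoded in the nucleus, made in the cytosol and drawn in through the translocons of the envelope, after which proteases and chaperones of the plastid fold and replace them. Green fruit skin is a photosynthetic tissue, and its plastids also make carotenoids, fatty acids and the precursors of oxylipin hormones.

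Levels are given as FPKM, a fragment count relative to gene length and library size, as the authors deposited them, and library values are always in the order of replicates 1, 2 and 3. Differences are between group means of log2(FPKM + 1), so they understate the change of genes near or below 1 FPKM. Of the 164 genes, 119 reached 1 FPKM in at least 3 libraries and were tested with limma together with all 1399 genes of the table that did so. The other 45 stayed below that minimum, 31 of them never reached 1 FPKM in any library, and the highest value among them was 17.5 FPKM (polyphenol oxidase MD10G1298700). The tested genes had a median level of 8.55 FPKM over all libraries, against 2.78 FPKM for all genes tested. Every gene in the table had been selected by the authors for a difference between all T and all CK libraries, and 146 of the 164 had been selected as lower in T and 18 as higher. A count of genes that differ between T and CK is thus no independent evidence of their direction, and it is read here against the same count over the whole table.

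The summed level of the 164 genes was 1992 to 3322 FPKM in T1 and 2920 to 3895 FPKM in CK1, 1461 to 1505 FPKM in T2 and 3208 to 4394 FPKM in CK2, and 2449 to 2956 FPKM in T3 and 4965 to 6306 FPKM in CK3. The whole table, these genes included, summed to 22630 to 24070 FPKM in T1 and 26750 to 30990 FPKM in CK1. Its sums were 17990 to 20850 FPKM in T2 and 19570 to 28930 FPKM in CK2. At DAF150 they were 15710 to 18230 FPKM in T3 and 20770 to 30400 FPKM in CK3. Libraries of the same group correlated across genes at 0.942 or more. Genes for cuticle and wax, of which 17 of 22 reached 1 FPKM, summed to 141 to 152.5 FPKM in T1 and 115 to 269 FPKM in CK1, to 123 to 210 FPKM in T2 and 349 to 758 FPKM in CK2, and to 198 to 266 FPKM in T3 and 241 to 546 FPKM in CK3. Genes for suberin and periderm (8 of 9) summed to 9.49 to 22.2 FPKM in T1 and 6.46 to 15.1 FPKM in CK1, to 22.0 to 29.9 FPKM in T2 and 36.1 to 181 FPKM in CK2, and to 19.1 to 23.9 FPKM in T3 and 18.1 to 112 FPKM in CK3. Genes for secondary walls and vascular tissue (26 of 28) summed to 127 to 156 FPKM in T1 and 305 to 431 FPKM in CK1, to 70.3 to 199 FPKM in T2 and 201 to 337 FPKM in CK2, and to 98.65 to 292.5 FPKM in T3 and 70.7 to 164 FPKM in CK3. At DAF150 T and CK overlapped in each of these lists, and at DAF30 in the cuticle and the suberin lists. At DAF60 all T2 sums lay below all CK2 sums in each list, narrowly so for secondary walls (199 against 201 FPKM). At DAF30 the T1 sums lay below the CK1 sums in the secondary wall list. The listed genes also come from the table selected for a difference between T and CK. The part of the cell make-up of the skin in the differences below was not tested.

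**Figure D1:**
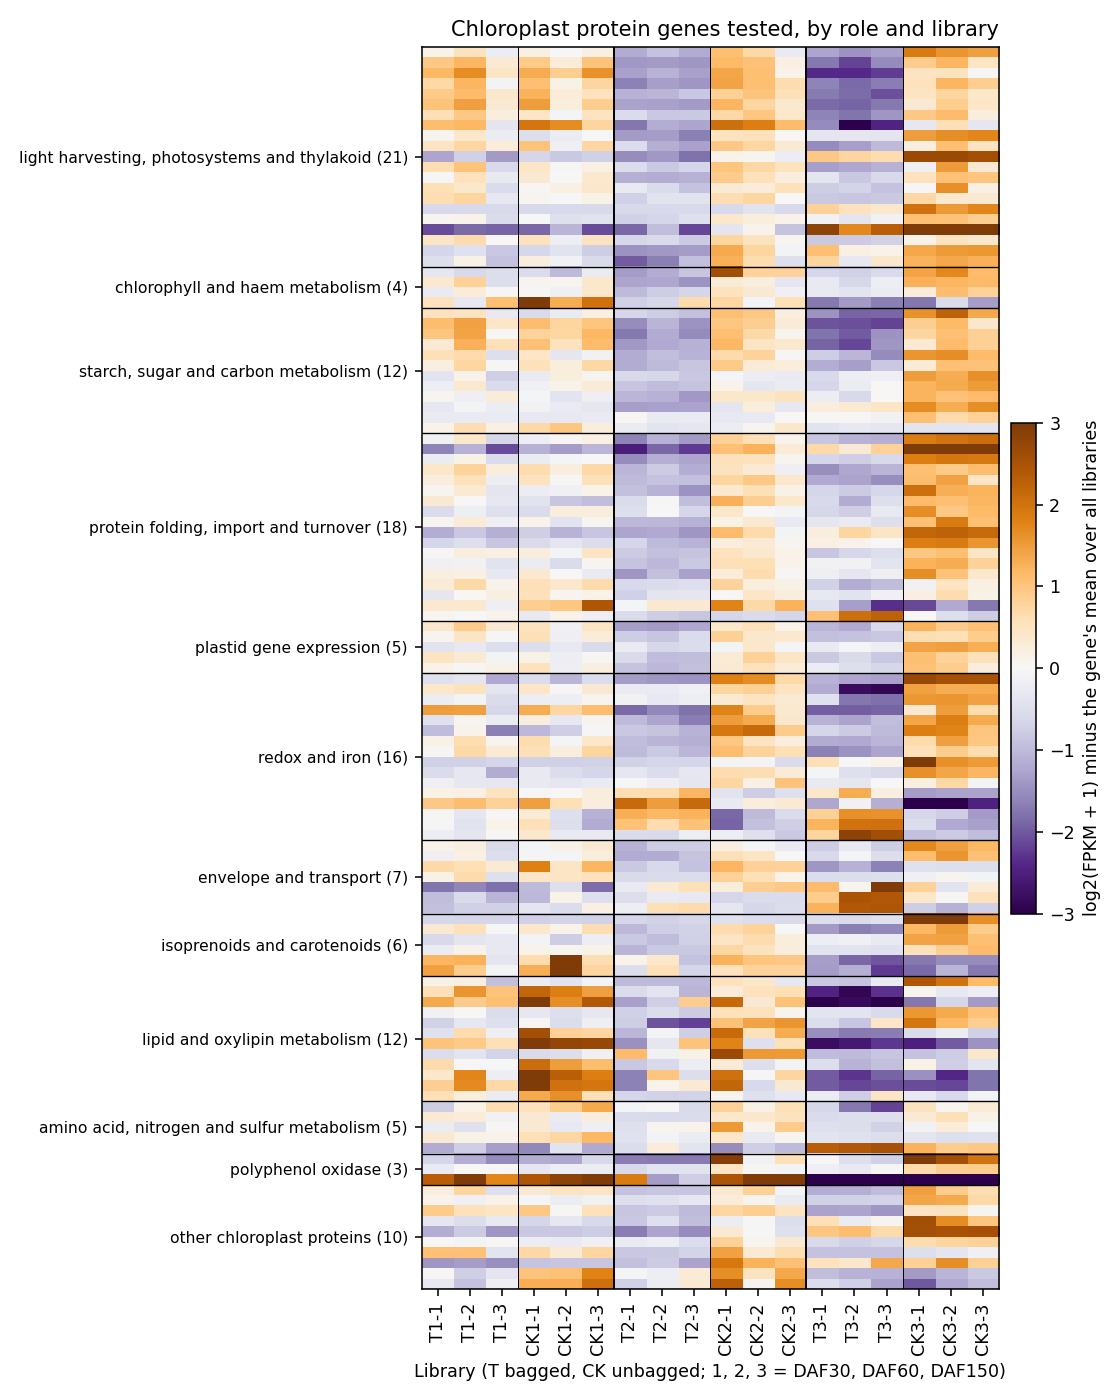
Level of the 119 tested chloroplast protein genes in each of the 18 libraries, as log2(FPKM + 1) minus the gene's mean over all libraries (orange above the mean, violet below it, with values beyond 3 drawn in the end colours). Rows are genes grouped by role, with the number of genes in brackets and ordered within a role by the difference at DAF150, and columns are libraries with T left of CK at each stage. T2 and T3 are violet in most rows, and a few rows of redox and iron and of envelope and transport genes are orange in T2 or T3.

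At DAF30 few of these genes differed. Of the 119 tested, 0 were higher and 7 were lower in T1 than in CK1 at an adjusted p of at most 0.05, where 2.07% and 12.4% of all genes tested were. At an unadjusted p under 0.05 the counts were 1 and 14, against 63 and 322 of all 1399 genes tested. The count of 7 fell to 3 without CK1 replicate 1 and to 4 without T1 replicate 3. The genes that fell belong to lipid and oxylipin metabolism, to chlorophyll synthesis, to sulfur assimilation and to a pair of BPS1 genes, and none of the 21 light-harvesting, photosystem and thylakoid genes was among them.

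At DAF60 the chloroplast protein genes were lower in bagged skin as a body, though nearly as large a share of the whole table was. Of the 119, 6 were higher and 88 (73.9%) were lower in T2 than in CK2, where 9.51% and 61.9% of all genes tested were. Their median difference was -1.28, against -1.06 over all genes tested. When each library was centred on its median, which moved the median of all genes tested to 0.10, the counts became 16 higher and 19 lower. Together these are 35 of the 119, where 34.8% of all genes tested passed in either direction under that setting. Of the 72 genes named by the rule in the methods, 55 passed at DAF60 and 56 at DAF150. After centring 21 of the 55 still passed in the same direction, 23 no longer passed and 11 changed sign, whereas 53 of the 56 at DAF150 still passed.

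At DAF150 these genes were lower in bagged skin in about the same number as at DAF60, whereas a smaller share of the whole table was. Of the 119, 9 were higher and 87 (73.1%) were lower in T3 than in CK3, where 12.6% and 31.5% of all genes tested were. The median difference was -1.59, against -0.37 over all genes tested. Centring the libraries left 10 higher and 79 lower, together 89 of the 119, where 37.8% of all genes tested passed in either direction. At the study's own threshold, an adjusted p of at most 0.001 and at least a 2-fold difference, no gene passed at DAF30 (0 higher, 0 lower), DAF60 had 4 rises and 57 falls and DAF150 had 7 rises and 70 falls, against 0% and 0.143%, 3.72% and 27.4%, and 4.57% and 15.5% of all genes tested. All libraries of T lay below all of CK for 14, 96 and 92 of the 119 genes at DAF30, DAF60 and DAF150, against 22.9%, 63.4% and 37.8% of all genes tested, and all of T lay above all of CK for 3, 7 and 9, against 6.43%, 11.2% and 12.7%.

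**Figure D2:**
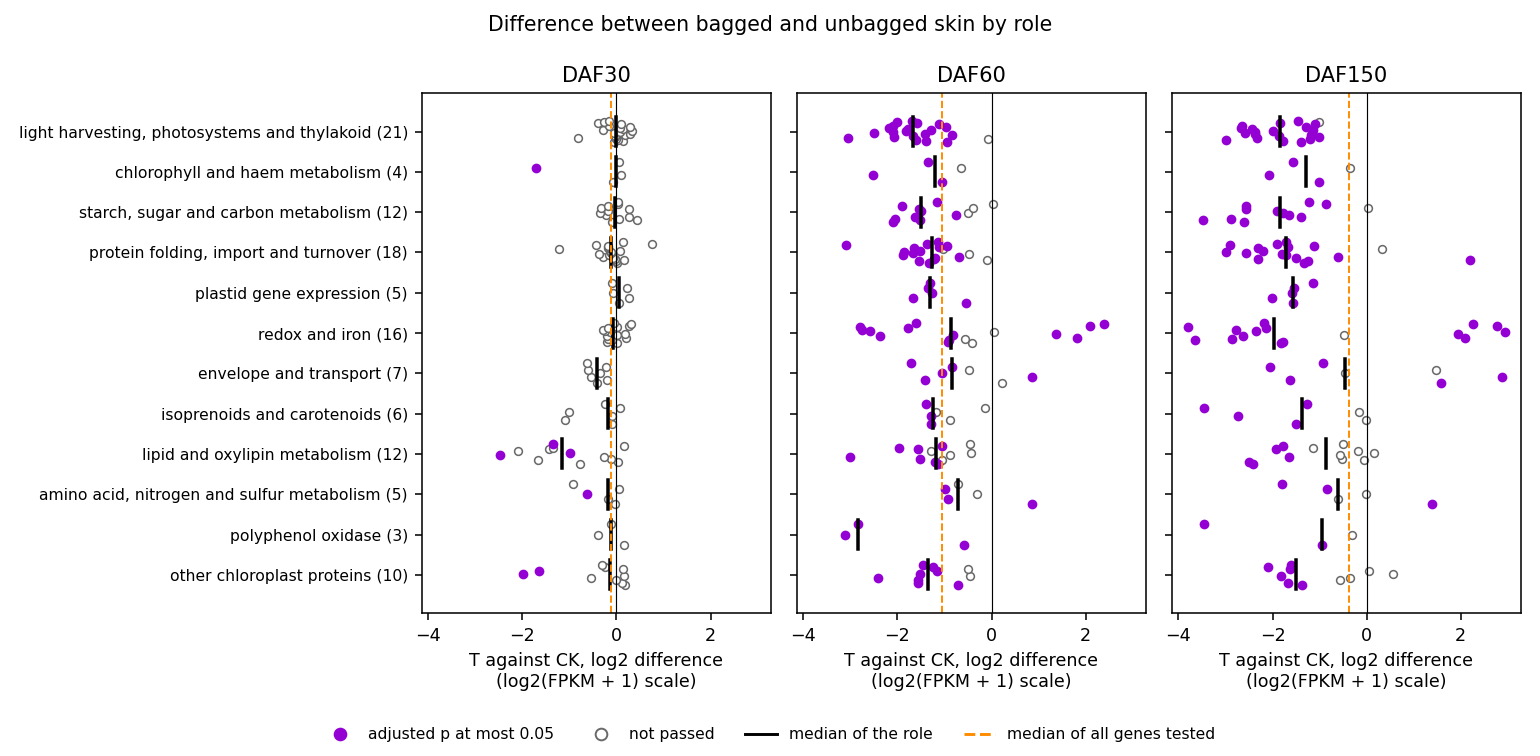
Difference between T and CK on the log2(FPKM + 1) scale for each tested gene (point), by role (rows, with the number of genes) and stage (panels). Filled points passed an adjusted p of 0.05, black bars are the median of a role and the dashed line is the median of all 1399 genes tested, which lies at -0.12 (DAF30), -1.06 (DAF60) and -0.37 (DAF150). At DAF150 the medians of all 12 roles lie left of the dashed line, from -1.98 (redox and iron) to -0.45 (envelope and transport), and at DAF60 those of redox and iron, of envelope and transport and of amino acid genes lie right of it.

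The light-harvesting, photosystem and thylakoid genes fell almost without exception from DAF60 on, though far fewer passed at DAF60 after centring. None of the 21 tested passed at DAF30, where their median difference was 0.00, while 20 (95.2%) were lower and 0 higher at DAF60, and 20 were lower and 0 higher at DAF150, against 61.9% and 31.5% of all genes tested that were lower. The sum of the role was 187, 212 and 216 FPKM in T2, against 1227, 933 and 582 FPKM in CK2, and 907, 507 and 625 FPKM in T3, against 1881, 1723 and 1605 FPKM in CK3. After centring, 6 were lower and 1 higher at DAF60, with a median of -0.50, and 18 were lower and 0 higher at DAF150, with a median of -1.38. Under that setting 11.7%, 34.8% and 37.8% of all genes tested passed at DAF30, DAF60 and DAF150, in either direction. The centred counts of every role below stand beside these same shares.

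Antenna proteins bind chlorophyll and pass light energy to the reaction centres. The most abundant of them, chlorophyll a-b binding protein 151 (MD09G1122500, chr9:9443330-9444730), had 91.0, 104 and 79.5 FPKM in T1, against 92.2, 106 and 83.6 FPKM in CK1, with overlapping libraries. At DAF60 it had 51.4, 53.5 and 55.2 FPKM in T2, against 360.0, 242 and 135 FPKM in CK2, so that every T2 library lay below every CK2 library (log2 difference -2.07, SE 0.32, adjusted p = 6.96e-05). At DAF150 it had 302, 160.0 and 156 FPKM in T3, against 366, 406 and 421 FPKM in CK3 (log2 difference -1.01, SE 0.32, adjusted p = 0.0163). This last call was lost without T3 replicate 2 (adjusted p = 0.0753), without T3 replicate 3 (adjusted p = 0.0744), with only the libraries compared in the model (adjusted p = 0.0525) and after centring (log2 difference -0.55, adjusted p = 0.155). Its namesake MD17G1113400 had 23.2, 29.2 and 48.5 FPKM in T2, against 229, 148 and 68.1 FPKM in CK2 (log2 difference -2.01, and -0.85 after centring, adjusted p = 0.0883), and did not pass at DAF150, with 160.4, 77.0 and 123 FPKM in T3, against 225, 244 and 229 FPKM in CK3 (log2 difference -1.01, adjusted p = 0.0604). It did pass there without CK2 replicate 1, CK2 replicate 3 or T3 replicate 1 (adjusted p = 0.0412, 0.0307 and 0.0425).

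Chlorophyll a-b binding protein P4 (MD06G1195000, chr6:32950773-32952478), an antenna protein of photosystem I, showed the largest fall of the role at DAF60. It had 2.50, 4.25 and 3.87 FPKM in T2, against 47.4, 41.0 and 24.7 FPKM in CK2, and the libraries were far apart (log2 difference -3.06, SE 0.48, adjusted p = 7.09e-05). At DAF150 it had 3.03, 0.39 and 1.14 FPKM in T3, against 8.34, 16.3 and 8.27 FPKM in CK3 (log2 difference -2.32, SE 0.48, adjusted p = 0.000731), and within unbagged skin DAF150 differed from DAF60 by -1.71 on the log2 scale (adjusted p = 0.0056). The other antenna genes of photosystem I are MD17G1123800, described as photosystem I chlorophyll a/b-binding protein 3-1, and MD15G1083400, described as protein 5. The first had 43.4, 42.6 and 44.2 FPKM in T2, against 179.8, 141 and 112 FPKM in CK2 (log2 difference -1.69, and -0.53 after centring, adjusted p = 0.14), and its log2 difference at DAF150 was -1.46. The second, at a lower level, had 1.33, 1.44 and 1.82 FPKM in T2, against 7.73, 9.09 and 6.44 FPKM in CK2 (log2 difference -1.78, and -0.62 after centring, adjusted p = 0.0787), and it fell to 0.53, 0.39 and 0.18 FPKM in T3, against 5.93, 7.53 and 5.68 FPKM in CK3.

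Among the photosystem II genes, the 10 kDa polypeptide (MD10G1198300, chr10:29623582-29631938), a small subunit near the oxygen-evolving complex, had 23.0, 19.0 and 21.8 FPKM in T3, against 104, 169 and 131 FPKM in CK3 (log2 difference -2.58, SE 0.34, adjusted p = 1.18e-05). At DAF30 it had overlapping values, 117, 169 and 68.1 FPKM in T1, against 154, 80.4 and 123 FPKM in CK1. LOW PSII ACCUMULATION 1 (MD10G1171900), an assembly factor of photosystem II, fell to 0.37, 0.22 and 0.56 FPKM in T3, against 7.03, 8.22 and 3.90 FPKM in CK3 (log2 difference -2.37). The psbP domain proteins 3 (MD16G1283100) and 4 (MD10G1012400) belong to a family of lumen proteins. Their differences were -1.11 and -0.85 at DAF60, which turned to 0.05 and 0.31 after centring, and -1.09 and -1.17 at DAF150. MD10G1012400 overlaps another gene model, so reads may be shared. The psbY gene (MD06G1160500), whose model also overlaps a neighbour, was listed at 0 in every library at DAF30 and in all 3 of T2, and had 1.64, 1.20 and 0.99 FPKM in T3, against 5.17, 3.42 and 4.08 FPKM in CK3 (log2 difference -1.19, SE 0.16, adjusted p = 1.55e-05). It was the member of this role that did not pass at DAF60 (log2 difference -0.07). The value of 1.09 after centring is an offset of the libraries, as psbY was not detected in T2.

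The members described as proteins of the plastid genome itself lie on nuclear chromosomes in this assembly, and reads of the plastid copy and of a nuclear copy cannot be told apart. Photosystem II protein D2 (MD09G1235700, chr9:29602807-29603142), a reaction centre subunit, had 1.01, 0.33 and 0.17 FPKM in T2, against 4.64, 3.88 and 2.60 FPKM in CK2, and 0, 0.16 and 0.45 FPKM in T3, against 2.33, 5.14 and 3.04 FPKM in CK3 (log2 differences -1.66 and -1.87). The call at DAF60 was lost after centring (-0.50, adjusted p = 0.212). The photosystem I apoprotein A1 models MD05G1127800 and MD02G1099400, which hold the core of that photosystem, differed by -1.40 and -0.95 at DAF60 and by -1.78 and -1.39 at DAF150. The call of MD05G1127800 at DAF60 was lost after centring (-0.24, adjusted p = 0.639). For MD02G1099400, near 1 FPKM, the value at DAF60 turned to 0.21 after centring, and the call was lost without CK2 replicate 3, T2 replicate 2 or T2 replicate 3 (adjusted p = 0.0691, 0.0509 and 0.0911).

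Genes of electron transport behind photosystem I were lower in bagged skin at DAF60 and DAF150. Ferredoxin-NADP reductase of the leaf type (MD15G1244500, chr15:20094482-20097366), which passes electrons from ferredoxin to NADP, had 43.5, 52.0 and 27.4 FPKM in T1, against 42.9, 26.8 and 45.4 FPKM in CK1. It then had 7.68, 7.92 and 7.60 FPKM in T2, against 50.6, 46.1 and 25.1 FPKM in CK2 (log2 difference -2.19, SE 0.34, adjusted p = 6.36e-05), and 5.91, 4.07 and 6.90 FPKM in T3, against 42.0, 51.6 and 30.4 FPKM in CK3 (log2 difference -2.67, SE 0.34, adjusted p = 8.4e-06). The libraries overlapped at DAF30 and were apart at the other stages. The NDH complex, which returns electrons from ferredoxin to the quinone pool, was represented by 3 genes. Subunit L (MD16G1022900) fell by 2.10 and 2.64 on the log2 scale at DAF60 and DAF150, with 0.97, 0.95 and 1.18 FPKM in T3, against 13.3, 13.3 and 8.96 FPKM in CK3. Subunit B 5 (MD11G1069500) had 1.96, 1.87 and 2.29 FPKM in T3, against 12.7, 18.9 and 13.5 FPKM in CK3 (log2 difference -2.38), and subunit T (MD15G1410800), near 1 to 2 FPKM, differed by -0.97 at DAF60 (0.19 after centring) and by -1.30 at DAF150.

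A further group of thylakoid genes was most abundant at DAF150 in unbagged skin. THYLAKOID FORMATION1 (MD17G1085500, chr17:7023536-7026493), which takes part in building thylakoids and in the turnover of photosystem II, had 13.7, 20.1 and 12.4 FPKM in T1, against 21.3, 18.8 and 20.0 FPKM in CK1. At DAF150 it had 66.0, 58.1 and 53.7 FPKM in T3, against 219, 218 and 204 FPKM in CK3, a wide gap between libraries that were close within each group (log2 difference -1.84, SE 0.24, adjusted p = 1.18e-05). STN7 (MD13G1046400), the kinase that phosphorylates antenna proteins of photosystem II in state transitions, had 6.21, 6.37 and 6.24 FPKM in T3, against 25.1, 28.5 and 30.4 FPKM in CK3 (log2 difference -1.99, SE 0.25, adjusted p = 9.21e-06). Lumenal protein TL20.3 (MD06G1065500) had 0.42, 0.25 and 0.39 FPKM in T3, against 11.6, 9.27 and 8.40 FPKM in CK3, the largest fall of the role at that stage (log2 difference -2.98, SE 0.30, adjusted p = 1.04e-06). Early light-induced protein 1 (MD13G1200600), a stress-induced relative of the antenna proteins that is thought to hold free chlorophyll, had 9.03, 18.2 and 7.51 FPKM in T2, against 28.1, 39.5 and 19.2 FPKM in CK2, and 258, 122 and 185 FPKM in T3, against 684, 303 and 299 FPKM in CK3. It was higher at DAF150 than at DAF60 in both kinds of skin (log2 difference 3.94 in T and 3.79 in CK, adjusted p = 1.51e-06 and 1.62e-06). Its T against CK difference was -1.28 at DAF60 (adjusted p = 0.0112) and -1.13 at DAF150 (adjusted p = 0.035). The call at DAF60 was lost without CK2 replicate 2 or T2 replicate 3 (adjusted p = 0.0527 and 0.0523), and that at DAF150 without CK3 replicate 1, T3 replicate 2 or T3 replicate 3 (adjusted p = 0.192, 0.167 and 0.0688). Centring ended both calls (log2 difference -0.12, adjusted p = 0.86 at DAF60, and -0.67, adjusted p = 0.236 at DAF150). The call at DAF150 was also lost with no filter on low values (adjusted p = 0.0535) and with only the libraries compared (adjusted p = 0.087).

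**Figure D3:**
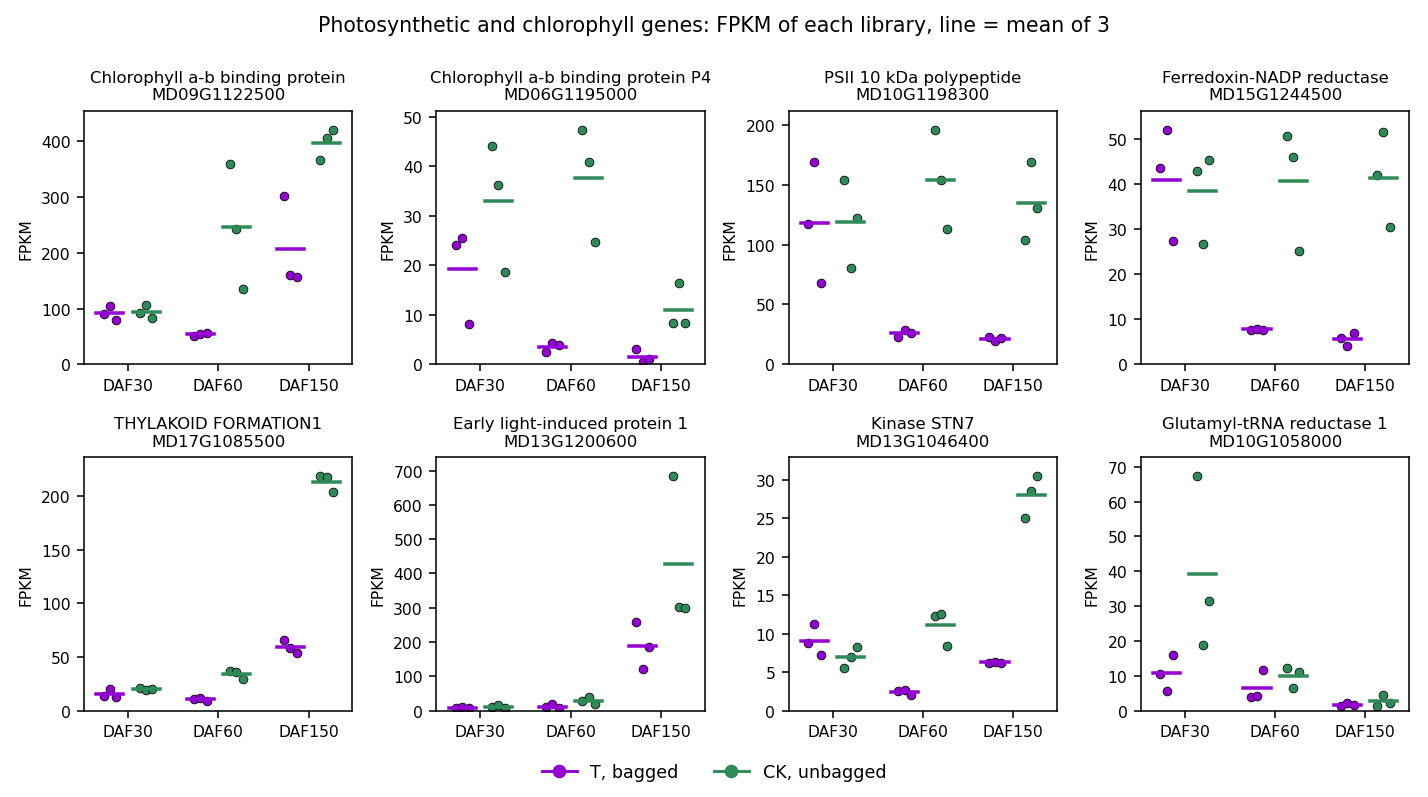
FPKM of 8 photosynthetic and chlorophyll genes in each library (points) with the mean of 3 libraries (lines), for T (violet) left of CK (green) at DAF30, DAF60 and DAF150, each panel from 0 on its own scale. T and CK points overlap at DAF30 for every gene but glutamyl-tRNA reductase 1, and at DAF60 and DAF150 all T points lie below all CK points for the first 7 genes. At DAF150 THYLAKOID FORMATION1 has 53.7 to 66.0 FPKM in T3, against 204 to 219 FPKM in CK3.

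Chlorophyll is made from glutamate through glutamyl-tRNA, and 4 genes of chlorophyll and haem metabolism were tested. None was higher at any stage (0 of 4). DAF30 had 1 fall, DAF60 had 3 and DAF150 had 3, against 12.4%, 61.9% and 31.5% of all genes tested that were lower. After centring the falls were 1, 1 and 2. Glutamyl-tRNA reductase 1 (MD10G1058000, chr10:7854425-7857482), which makes the first committed step of tetrapyrrole synthesis, had 10.6, 5.50 and 16.1 FPKM in T1, against 67.3, 18.9 and 31.3 FPKM in CK1. No T1 library reached a CK1 library (log2 difference -1.70, SE 0.49, adjusted p = 0.0273), but the call was lost without CK1 replicate 1, T1 replicate 1 or T1 replicate 2 (adjusted p = 0.153, 0.0621 and 0.122), with a pseudocount of 0.1 (adjusted p = 0.0569) and with only the libraries compared (adjusted p = 0.0913). At DAF60 and DAF150 it did not pass (log2 differences -0.64 and -0.36). The next enzyme, glutamate-1-semialdehyde aminomutase (MD14G1151700), overlapped at DAF30 and had 2.47, 2.54 and 2.04 FPKM in T2, against 9.06, 8.69 and 5.47 FPKM in CK2, and 5.84, 4.40 and 6.36 FPKM in T3, against 18.9, 17.99 and 17.3 FPKM in CK3 at the later stages (log2 differences -1.36 and -1.56), and its call at DAF60 was lost after centring (-0.20, adjusted p = 0.663). Translocon component 52 (MD03G1005500), named for its dependence on protochlorophyllide, had 0.08, 0.23 and 0.52 FPKM in T2, against 15.7, 3.73 and 3.73 FPKM in CK2, and 0.76, 0.72 and 0.85 FPKM in T3, against 6.37, 8.13 and 5.11 FPKM in CK3 (log2 differences -2.51 and -2.07). Chlorophyll b reductase NOL (MD02G1262200), which starts chlorophyll b breakdown, differed by -1.05 at DAF60, which turned to 0.11 after centring, and by -1.02 at DAF150, which no longer passed after centring (-0.56, adjusted p = 0.0929).

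Of the 12 tested genes for starch, sugar and carbon metabolism, 0 passed at DAF30, 9 (75%) were lower and 0 higher at DAF60, and 11 (91.7%) were lower and 0 higher at DAF150, against 61.9% and 31.5% of all genes tested that were lower. After centring 2 were lower and 2 higher at DAF60, and 10 were lower and 0 higher at DAF150. Fructose-bisphosphate aldolase 1 (MD00G1040000), an enzyme of the Calvin cycle and of starch synthesis, had the highest mean of the role. It had 373, 507 and 191 FPKM in T1, against 326, 316 and 429.8 FPKM in CK1, then 55.9, 81.9 and 63.6 FPKM in T2, against 398, 306 and 195 FPKM in CK2 (log2 difference -2.10, SE 0.34, adjusted p = 8.9e-05), and 54.5, 46.7 and 68.1 FPKM in T3, against 318, 392 and 334 FPKM in CK3 (log2 difference -2.61, SE 0.34, adjusted p = 1.17e-05). CP12-1 (MD11G1314000), a small protein that binds Calvin cycle enzymes in the dark, had 59.4, 48.0 and 34.3 FPKM in T3, against 305, 318 and 222 FPKM in CK3 (log2 difference -2.57). Sedoheptulose-1,7-bisphosphatase (MD01G1146300), which regenerates the carbon acceptor of the cycle, had 12.2, 16.9 and 12.9 FPKM in T2, against 72.6, 66.8 and 44.9 FPKM in CK2, and 8.05, 7.98 and 7.44 FPKM in T3, against 66.8, 82.6 and 48.5 FPKM in CK3 (log2 differences -2.04 and -2.89). Rubisco activase (MD01G1137900), which keeps Rubisco active, had the largest fall of the role at DAF150, with 8.69, 6.03 and 6.10 FPKM in T3, against 79.6, 123 and 66.9 FPKM in CK3 (log2 difference -3.49, SE 0.33, adjusted p = 6.64e-07). Isoamylase 3 (MD15G1376800), a starch-debranching enzyme named after its values were seen, had 7.98, 8.61 and 9.51 FPKM in T3, against 23.8, 18.3 and 23.2 FPKM in CK3 (log2 difference -1.22), and its level at DAF150 was higher than at DAF60 in both kinds of skin.

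The 5 tested genes of plastid gene expression were all lower at DAF60 and at DAF150, against 61.9% and 31.5% of all genes tested. None of the 5 passed at DAF30. Ribosomal protein L1 of the plastid ribosome (MD07G1022000) had 5.57, 5.41 and 6.07 FPKM in T2, against 21.0, 23.3 and 17.0 FPKM in CK2, and 7.03, 6.13 and 9.90 FPKM in T3, against 37.8, 29.7 and 33.8 FPKM in CK3 (log2 differences -1.67 and -2.02). MTERF8 (MD07G1298900), a transcription termination factor, and CRS2-associated factor 1 (MD15G1193500), which splices plastid introns, fell by 1.26 and 1.35 at DAF60 and differed by -1.59 and -1.55 at DAF150. After centring 0 of the 5 passed at DAF60 and 5 were lower at DAF150.

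Genes for protein folding, import and turnover made up 18 of the tested genes. In this role 15 (83.3%) were lower at DAF60, against 61.9% of all genes tested, and 16 (88.9%) at DAF150, against 31.5%. Of the 18, 0 and 1 were higher. After centring 2 were lower and 1 higher at DAF60, and 14 were lower and 1 higher at DAF150. The thylakoid proteases FTSH (MD08G1003700) and FTSH 2 (MD09G1234500), which degrade damaged photosystem II subunits, had the highest means. FTSH 2 had 39.2, 35.6 and 39.8 FPKM in T3, against 259, 154 and 146 FPKM in CK3 (log2 difference -2.20, SE 0.27, adjusted p = 6.94e-06) and FTSH had 52.8, 48.9 and 67.3 FPKM in T3, against 259, 159 and 183 FPKM in CK3 (log2 difference -1.80, SE 0.29, adjusted p = 8.24e-05). A gene for TIC 55 (MD15G1043600, chr15:3022057-3024612), a redox protein of the inner envelope translocon, was highest at DAF150 in both kinds of skin but at different levels. It had 2.01, 3.21 and 1.15 FPKM in T1, against 3.22, 2.59 and 3.44 FPKM in CK1, then 0.57, 1.47 and 0.94 FPKM in T2, against 18.2, 20.8 and 10.2 FPKM in CK2 (log2 difference -3.09, SE 0.32, adjusted p = 6.93e-06), and 13.8, 10.6 and 15.2 FPKM in T3, against 113, 117 and 86.6 FPKM in CK3 (log2 difference -2.91, SE 0.32, adjusted p = 2.19e-06). Its model overlaps another gene. The TIC 55 models MD08G1051600 and MD08G1051700 overlap each other and differed by -2.56 and -2.99 at DAF150. DnaJ 11 (MD11G1041400), a small heat-induced co-chaperone, did not pass at DAF60, with 48.0, 65.1 and 64.2 FPKM in T2, against 174, 81.9 and 121 FPKM in CK2 (adjusted p = 0.0604), though it did without CK1 replicate 3, CK2 replicate 2, T3 replicate 1 or T3 replicate 3 (adjusted p = 0.0371, 0.0357, 0.0419 and 0.0394) and with only the libraries compared (adjusted p = 0.0375). The gene that rose was glutamyl endopeptidase (MD00G1179200), a stromal peptidase, with 46.4, 92.4 and 106 FPKM in T3, against 21.9, 15.2 and 12.4 FPKM in CK3 (log2 difference 2.20, SE 0.30, adjusted p = 1.83e-05). It shares its start with the untested model MD00G1179100, and its difference at DAF60 was -0.10, which turned to 1.06 after centring.

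Redox and iron genes did not move one way. Of 16 tested, 4 (25%) were higher and 9 (56.2%) lower at DAF60, against 9.51% and 61.9% of all genes tested. At DAF150 5 (31.2%) were higher and 10 (62.5%) lower, against 12.6% and 31.5%, and none passed at DAF30. Centring left 5 rises and 4 falls at DAF60, with 5 rises and 10 falls at DAF150. The rises were ferritins, a TIC 32 gene and, at DAF150, an iron superoxide dismutase, while thioredoxins and the copper-zinc superoxide dismutase fell.

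Superoxide dismutases convert superoxide in the plastid and differ in the metal at their centre. The copper-zinc enzyme (MD03G1128900, chr3:12520733-12524775) had 128, 138 and 74.9 FPKM in T1, against 130.0, 99.7 and 123 FPKM in CK1, with overlapping libraries. At DAF60 it had 80.8, 81.0 and 89.0 FPKM in T2, against 166, 173 and 136 FPKM in CK2 (log2 difference -0.91, adjusted p = 0.0344). That difference turned to 0.25 after centring, and the call was lost without CK2 replicate 1 or 2 or T2 replicate 1, 2 or 3 (adjusted p = 0.0814, 0.0819, 0.0750, 0.0734 and 0.0525). At DAF150 it had 41.8, 13.0 and 12.1 FPKM in T3, against 263, 242 and 242 FPKM in CK3, every T3 library below every CK3 library (log2 difference -3.65, SE 0.36, adjusted p = 1.04e-06). The copper chaperone that loads this enzyme (MD04G1072900) had 24.7, 27.1 and 19.2 FPKM in T1, against 24.9, 25.3 and 29.6 FPKM in CK1, and it did not pass at DAF60 (log2 difference -0.56, adjusted p = 0.113, and 0.0358 without T3 replicate 1). At DAF150 it had 20.9, 7.74 and 7.37 FPKM in T3, against 85.8, 87.9 and 78.5 FPKM in CK3 (log2 difference -2.86, SE 0.31, adjusted p = 2.19e-06). The iron enzyme (MD07G1240700, chr7:31204105-31207040) moved the other way at that stage. It had 1.30, 1.28 and 2.00 FPKM in T2, against 1.98, 1.46 and 0.94 FPKM in CK2 (log2 difference 0.05, and 1.21 after centring, adjusted p = 0.0269), and then 4.71, 22.8 and 19.3 FPKM in T3, against 0.78, 0.96 and 0.73 FPKM in CK3 (log2 difference 2.95, SE 0.40, adjusted p = 1.92e-05).

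Ferritin stores iron in the plastid, and all 3 ferritin-4 genes were higher in bagged skin at DAF60 and DAF150. MD12G1178200 (chr12:25882761-25885061) had 62.4, 48.0 and 69.4 FPKM in T1, against 95.5, 45.6 and 27.5 FPKM in CK1, and T1 and CK1 overlapped. It had 132, 99.6 and 132 FPKM in T2, against 16.3, 33.0 and 38.1 FPKM in CK2 (log2 difference 2.09, SE 0.41, adjusted p = 0.000454), and 151, 260.2 and 264 FPKM in T3, against 44.2, 27.0 and 25.4 FPKM in CK3 (log2 difference 2.77, SE 0.41, adjusted p = 4.25e-05). Its neighbour MD12G1178500, 6828 bases away on the same chromosome, had 62.9, 110.2 and 108 FPKM in T3, against 22.5, 20.2 and 13.0 FPKM in CK3 (log2 difference 2.26). MD04G1164500 was at its highest in T2, with 99.2, 64.4 and 99.6 FPKM in T2, against 18.2, 26.3 and 27.8 FPKM in CK2 (log2 difference 1.81), and lower at DAF150 in both, with 8.94, 20.6 and 9.60 FPKM in T3, against 1.52, 1.79 and 3.14 FPKM in CK3 (log2 difference 2.10). Reads of these paralogs may have been split between them. In every ferritin gene T3 replicate 1 was the T3 library nearest to CK3, as it was in 8 of the 9 genes that were higher at DAF150. It was the nearest in 32 of the 87 genes that were lower.

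Among the thiol proteins, the thioredoxin-like AAED1 (MD12G1128400) had 1.62, 1.81 and 0.55 FPKM in T1, against 1.51, 0.76 and 1.49 FPKM in CK1, then 0.42, 0.34 and 0.33 FPKM in T2, against 11.7, 10.6 and 4.85 FPKM in CK2 (log2 difference -2.80, SE 0.30, adjusted p = 8.37e-06), and 0.68, 0.51 and 0.46 FPKM in T3, against 22.6, 19.9 and 19.5 FPKM in CK3 (log2 difference -3.81, SE 0.30, adjusted p = 1.15e-07). Its paralog MD02G1189600 had 39.2, 29.5 and 26.8 FPKM in T3, against 128, 109.6 and 96.3 FPKM in CK3 (log2 difference -1.78), and its difference of -0.92 at DAF60 turned to 0.24 after centring. CDSP32 (MD08G1007500), a drought-induced thioredoxin named after its values were seen, had 0.08, 0.33 and 0.13 FPKM in T2, against 12.3, 6.33 and 4.01 FPKM in CK2, and 0, 0 and 0.03 FPKM in T3, against 3.93, 9.85 and 5.16 FPKM in CK3. The TIC 32 dehydrogenases, NADPH-binding proteins of the inner envelope translocon that are counted here as redox genes, parted. MD07G1274500 had 2.02, 1.90 and 1.54 FPKM in T2, against 19.4, 22.3 and 9.05 FPKM in CK2 (log2 difference -2.58), while MD06G1113700, also named after its values were seen, had 3.49, 3.56 and 5.77 FPKM in T2, against 1.21, 0.72 and 1.14 FPKM in CK2, and 2.86, 6.28 and 2.38 FPKM in T3, against 0.15, 0.2 and 0.2 FPKM in CK3 (log2 differences 1.36 and 1.95).

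**Figure D4:**
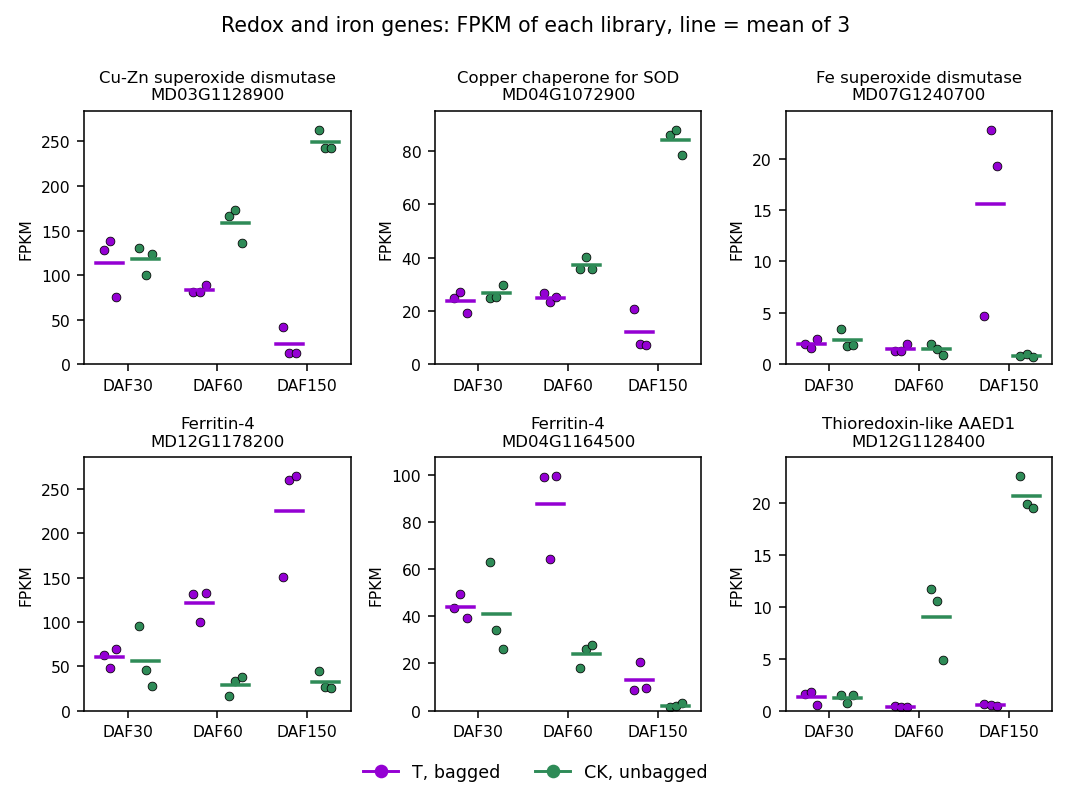
FPKM of 6 redox and iron genes in each library (points) with the mean of 3 libraries (lines), for T (violet) left of CK (green) at DAF30, DAF60 and DAF150, each panel from 0 on its own scale. At DAF150 the copper-zinc superoxide dismutase has 12.1 to 41.8 FPKM in T3, against 242 to 263 FPKM in CK3, and the iron superoxide dismutase 4.71 to 22.8 FPKM in T3, against 0.73 to 0.96 FPKM in CK3. Both ferritin genes lie above CK in T2 and T3.

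Envelope and transport genes likewise held both directions. Of 7 tested, 1 was higher and 4 (57.1%) lower at DAF60, against 9.51% and 61.9% of all genes tested. At DAF150 2 were higher and 3 (42.9%) lower, against 12.6% and 31.5%. Centring left 2 rises and 0 falls at DAF60, with 3 rises and 2 falls at DAF150. HMA1 (MD02G1179100), a metal-pumping ATPase of the envelope, had 59.1, 70.3 and 67.8 FPKM in T2, against 53.4, 56.7 and 57.3 FPKM in CK2 (log2 difference 0.23, and 1.39 after centring, adjusted p = 0.0218), and 155, 469 and 452 FPKM in T3, against 113, 85.8 and 124 FPKM in CK3, where T3 replicate 1 stood below the other T3 libraries and above all of CK3 (log2 difference 1.59, SE 0.37, adjusted p = 0.00214). Zinc transporter 4 (MD08G1061900) had 27.9, 48.0 and 50.9 FPKM in T2, against 24.8, 20.0 and 21.5 FPKM in CK2, and 76.2, 169.9 and 175 FPKM in T3, against 18.4, 14.1 and 18.9 FPKM in CK3 (log2 difference 2.88, SE 0.33, adjusted p = 3.9e-06). Its call at DAF60 (log2 difference 0.86, adjusted p = 0.0279) was lost without CK2 replicate 2 or 3 or T2 replicate 2 or 3 (adjusted p = 0.0704, 0.0592, 0.0903 and 0.0982), and with only the libraries compared (adjusted p = 0.0502). Glucose-6-phosphate/phosphate translocator 2 (MD10G1316100), which brings hexose phosphate into plastids, had 13.3, 5.84 and 92.9 FPKM in T3, against 10.2, 3.82 and 6.85 FPKM in CK3, and it did not pass (adjusted p = 0.0804). Without T3 replicate 2 it did (log2 difference 2.28, adjusted p = 0.00703), as it did after centring (log2 difference 1.94, adjusted p = 0.0324).

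Among the isoprenoid and carotenoid genes, 3 of 6 (50%) were lower at DAF60 and 4 (66.7%) at DAF150, with 0 higher, against 61.9% and 31.5% of all genes tested that were lower. After centring 0 were lower and 1 higher at DAF60, and 4 were lower and 0 higher at DAF150. LUTEIN DEFICIENT 5 (MD04G1239800), a carotene hydroxylase, had 7.33, 7.60 and 6.81 FPKM in T3, against 24.0, 24.6 and 18.9 FPKM in CK3 (log2 difference -1.50, SE 0.25, adjusted p = 0.000108). The NCED genes make the precursor of abscisic acid, and MD05G1207300 and MD10G1194200 differed by -0.02 and -0.17 at DAF150, neither of which passed. Both were highest at DAF30, where CK1 replicate 2 alone had 87.7 and 67.4 FPKM against at most 18.6 and 6.65 FPKM in the other CK1 libraries. At DAF60, MD10G1194200 passed without CK1 replicate 2 (adjusted p = 0.0158, against 0.107 with it) and with only the libraries compared (adjusted p = 0.03). Ent-copalyl diphosphate synthase (MD11G1208700), the entry enzyme of gibberellin synthesis, stayed at 0.23 FPKM or less in every library but those of CK3. It had 0.19, 0.13 and 0.23 FPKM in T3, against 13.6, 28.3 and 4.08 FPKM in CK3 (log2 difference -3.45, SE 0.38, adjusted p = 2.91e-06). Its difference at DAF60 was -0.14, which turned to 1.02 after centring, an offset of the libraries in a gene barely detected at that stage.

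Lipid and oxylipin genes held 3 of the 7 falls at DAF30. An omega-3 fatty acid desaturase (MD07G1223100, chr7:30008443-30011490), which makes the linolenic acid of plastid membranes, had 16.9, 15.7 and 12.3 FPKM in T1, against 196, 58.8 and 57.2 FPKM in CK1 (log2 difference -2.48, SE 0.61, adjusted p = 0.0129), and the call was lost without CK1 replicate 1 (adjusted p = 0.0784). It did not pass at DAF60, though it did without T2 replicate 3 (adjusted p = 0.197 and 0.0342). The phosphodiesterase GDPD1 genes, which cleave glycerophosphodiesters, also fell at DAF30. MD17G1010400 had 4.28, 2.32 and 2.33 FPKM in T1, against 13.1, 8.30 and 6.20 FPKM in CK1 (log2 difference -1.34), a call lost without CK1 replicate 1 or T1 replicate 3 (adjusted p = 0.0699 and 0.0517) or with only the libraries compared (adjusted p = 0.0646), and MD09G1006500 differed by -0.99. Allene oxide cyclase 4 (MD09G1084600), an enzyme of jasmonate synthesis, had 5.91, 16.9 and 3.69 FPKM in T1, against 92.1, 24.9 and 17.9 FPKM in CK1, just short of the threshold (log2 difference -2.10, adjusted p = 0.0509). It passed at DAF30 without CK1 replicate 3, CK2 replicate 1 or 2, T1 replicate 2, or T2 replicate 1 or 2 (adjusted p = 0.0362, 0.0405, 0.0432, 0.0362, 0.0381 and 0.0371), and at DAF60 without CK2 replicate 2 or T2 replicate 2 (adjusted p = 0.0437 and 0.0209, against 0.102). The desaturase MD04G1155400 did not pass at DAF30 (log2 difference -1.66, adjusted p = 0.107), and passed at DAF60 without CK2 replicate 2 (adjusted p = 0.0375).

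Later, 7 (58.3%) of the 12 lipid genes were lower at DAF60 and 5 (41.7%) at DAF150, with 0 higher, shares near the 61.9% and 31.5% of all genes tested that were lower. After centring 1 was lower at DAF60 and 5 at DAF150, with 0 higher. Lipoxygenase 2-1 (MD07G1004500), which oxidises linolenic acid at the start of oxylipin synthesis, had 127, 51.6 and 46.6 FPKM in T2, against 449.8, 580.5 and 648 FPKM in CK2 (log2 difference -3.02, SE 0.40, adjusted p = 3.3e-05), and its model overlaps that of MD07G1003900 and others. MD07G1003900 had 3.44, 0.9 and 1.25 FPKM in T2, against 11.8, 4.90 and 4.86 FPKM in CK2 (log2 difference -1.51, and -0.35 after centring, adjusted p = 0.5). Lipoxygenase 3-1 (MD09G1180900) had 15.4, 23.2 and 73.4 FPKM in T2, against 177, 49.9 and 83.0 FPKM in CK2 (log2 difference -1.56, adjusted p = 0.0215), and this call was lost without CK2 replicate 1 or T2 replicate 1 or 2 (adjusted p = 0.130, 0.119 and 0.0695), with only the libraries compared (adjusted p = 0.0684) and after centring (-0.40, adjusted p = 0.558). At DAF150 its call (log2 difference -1.93) was lost without CK3 replicate 2 (adjusted p = 0.0537), and at DAF30 it passed without CK1 replicate 2 (adjusted p = 0.0463, against 0.0995). The desaturase MD01G1154100 had 3.10, 2.02 and 3.47 FPKM in T3, against 22.1, 17.1 and 18.7 FPKM in CK3 (log2 difference -2.41), and its difference of -1.14 at DAF60 turned to 0.02 after centring.

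Of the 5 genes for amino acids and sulfur, 1 (20%) was higher and 2 (40%) lower at DAF60 and again at DAF150. Among all genes tested the shares were 9.51% and 61.9% at DAF60, and 12.6% and 31.5% at DAF150. After centring 2 of the 5 were higher and 0 lower at DAF60, and 1 was higher and 1 lower at DAF150. Phosphoserine aminotransferase (MD02G1119200), of the serine route in plastids, had 174, 185 and 199 FPKM in T3, against 82.3, 63.5 and 66.9 FPKM in CK3 (log2 difference 1.38, SE 0.32, adjusted p = 0.00205). Its call at DAF60 (log2 difference 0.86) was lost without CK2 replicate 1 or T2 replicate 2 (adjusted p = 0.118 and 0.125) and with only the libraries compared (adjusted p = 0.0635). ATP sulfurylase 1 (MD16G1201400), the first enzyme of sulfate assimilation, differed by -0.72 at DAF60, which did not pass, and by -1.80 at DAF150, which did. APS reductase 3 (MD11G1215200), the next enzyme, had 0.83, 0.63 and 0.58 FPKM in T1, against 1.22, 1.41 and 2.29 FPKM in CK1 (log2 difference -0.63, SE 0.19, adjusted p = 0.035). Aspartokinase 2 (MD09G1003700), near 1 FPKM, differed by -0.93 at DAF60 (0.23 after centring), and the call was lost without CK2 replicate 1 or T2 replicate 1 (adjusted p = 0.0738 and 0.0574) or with only the libraries compared (adjusted p = 0.0655). At DAF150 it did not pass (log2 difference -0.60, adjusted p = 0.116), though it did with a pseudocount of 0.1 (adjusted p = 0.0308) and with only the libraries compared (adjusted p = 0.0329).

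Polyphenol oxidases brown injured tissue. Of 3 tested, 3 were lower at DAF60 and 2 at DAF150, against 61.9% and 31.5% of all genes tested. After centring 2 of the 3 were lower at both stages, with 1 higher at DAF60. MD05G1320800 had 82.3, 7.79 and 12.6 FPKM in T2, against 122, 254 and 206 FPKM in CK2 (log2 difference -3.12, SE 0.60, adjusted p = 0.000352) and was at 0.58 FPKM or less in every library at DAF150. MD10G1299300 had 0.1, 0.09 and 0.08 FPKM in T2, against 25.8, 2.29 and 4.31 FPKM in CK2, and 2.52, 1.53 and 1.14 FPKM in T3, against 84.9, 20.0 and 12.9 FPKM in CK3 (log2 differences -2.83 and -3.45). MD05G1318900 differed by -0.59 at DAF60, which turned to 0.57 after centring, and by -0.95 at DAF150.

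Among the 10 remaining tested genes, rises numbered 0. Falls numbered 2 at DAF30, 8 (80%) at DAF60 and 6 (60%) at DAF150, against 12.4%, 61.9% and 31.5% of all genes tested. After centring 1 was lower and 1 higher at DAF60, and 6 were lower and 0 higher at DAF150. The overlapping BPS1 models MD07G1022600 and MD07G1022700 (BPS1 controls a mobile growth signal in Arabidopsis) had 2.66, 1.36 and 2.95 FPKM in T1, against 9.77, 9.85 and 17.3 FPKM in CK1 (log2 difference -1.99) and 1.71, 0.59 and 1.06 FPKM in T1, against 4.36, 4.54 and 8.19 FPKM in CK1 (log2 difference -1.65). At DAF60, the call of MD07G1022600 was lost without CK2 replicate 1 (adjusted p = 0.0652) and after centring (-0.37, adjusted p = 0.546), and the difference of MD07G1022700 turned to 0.01 after centring. The aarF domain kinase gene MD15G1109100, of a family found in plastoglobules, had 42.4, 46.9 and 34.1 FPKM in T3, against 129.5, 124 and 127 FPKM in CK3 (log2 difference -1.61, SE 0.26, adjusted p = 8.78e-05). Phosphomethylpyrimidine synthase (MD11G1080300), of thiamine synthesis, had 2.82, 2.85 and 3.30 FPKM in T3, against 22.6, 14.8 and 12.2 FPKM in CK3 (log2 difference -2.09). The crocetin glucosyltransferase-like gene MD04G1019600 had 1.02, 1.21 and 0.58 FPKM in T2, against 13.6, 8.06 and 7.01 FPKM in CK2 (log2 difference -2.41) and overlapped at DAF150.

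The course over the stages differed between bagged and unbagged skin. In T, 80 of the 119 genes had their highest group mean at DAF30, 10 at DAF60 and 29 at DAF150, whereas in CK 31 were highest at DAF30, 21 at DAF60 and 67 at DAF150. Over all 1399 genes tested these shares were 49.6%, 13.7% and 36.7% in T, and 33.2%, 36.7% and 30.1% in CK. In T, 3 genes were higher and 56 lower at DAF60 than at DAF30, where 5.86% and 21.2% of all genes tested were. In CK, 28 were higher and 9 lower over the same time, where 31.3% and 13.5% were. After centring the CK counts turned round, to 9 higher and 26 lower, while those in T were 8 higher and 34 lower. Under that setting 46.8% of all genes tested passed in CK and 20.8% in T, in either direction. The CK count of 37 fell to 22 without CK2 replicate 2. The light-harvesting role held 0 rises and 13 falls in T, and 4 rises and 0 falls in CK, and after centring 0 rises and 12 falls in T, and 0 rises and 1 fall in CK. At DAF150 against DAF60, 24 genes were higher and 16 lower in T (18.2% and 16.2% of all genes tested), and 45 were higher and 22 lower in CK (17.7% and 39.7%). Centring gave 25 higher and 20 lower in T, and 70 higher and 15 lower in CK, where 37.6% and 51.9% of all genes tested passed in either direction. In CK, 10 of 18 folding, import and turnover genes and 7 of 12 carbon genes were among the rises.

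The genes that differed most between stages in unbagged skin are given here with their values in both kinds of skin. At DAF60 against DAF30 the 3 largest rises in CK on the log2 scale were those of lipoxygenase MD07G1003900, with 0.92 in T and 2.30 in CK, crocetin glucosyltransferase-like MD04G1019600, with 0.42 in T and 2.28 in CK, and TIC 32 MD07G1274500, with -0.09 in T and 2.25 in CK. The 3 largest falls in CK were those of the desaturases MD07G1223100, with -1.10 in T and -2.69 in CK, and MD04G1155400, with -1.48 in T and -2.09 in CK, and of allene oxide cyclase MD09G1084600, with -1.02 in T and -1.84 in CK. None of these 6 genes passed in T over that time (adjusted p = 0.08, 0.36, 0.926, 0.202, 0.115 and 0.309). At DAF150 against DAF60, early light-induced protein 1 MD13G1200600 differed by 3.94 in T and 3.79 in CK, ent-copalyl diphosphate synthase MD11G1208700 by 0.17 in T, which did not pass, and 3.49 in CK, and TIC 55 MD15G1043600 by 2.84 in T and 2.66 in CK. These were the 3 largest rises in CK. The 3 largest falls in CK were those of polyphenol oxidase MD05G1320800, with -4.19 in T and -7.00 in CK, ferritin MD04G1164500, with -2.73 in T and -3.01 in CK, and DnaJ 11 MD11G1041400, with -1.58 in T and -2.92 in CK.

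Whether the difference between bagged and unbagged skin itself changed was tested as the difference of the T against CK values of neighbouring stages. From DAF30 to DAF60 it became more negative in 71 of the 119 genes and more positive in 5, where 37.2% and 6.15% of all genes tested did. After centring these counts were 12 and 14, where 29.2% of all genes tested passed in either direction. From DAF60 to DAF150 it became more negative in 16 and more positive in 6, where 5.15% and 14.2% of all genes tested did. With centring the counts were 40 and 3, where 19.7% of all genes tested passed in either direction. The count of 22 fell to 13 without T2 replicate 2. Genes that turned further down at DAF150 included the copper-zinc superoxide dismutase MD03G1128900 (-2.74) and its chaperone MD04G1072900 (-2.30), and genes that turned up included the iron superoxide dismutase MD07G1240700 (2.90) and glutamyl endopeptidase MD00G1179200 (2.30).

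DAF60 and DAF150 share no library, but their calls come from the same model, which shares the estimate of each gene's spread. A tree may also have been sampled at both stages. The calls are set side by side as a description and are not independent of each other. Of the 119 genes, 77 (64.7%) were lower at both, against 25.1% of all genes tested, and 6 (5.04%) were higher at both, against 6.15%. A further 11 were lower at DAF60 and did not pass at DAF150 (9.24%, against 36.7% of all genes tested), and 10 were lower at DAF150 and did not pass at DAF60 (8.4%, against 6.36%). The 6 that were higher at both stages were the 3 ferritins, TIC 32 MD06G1113700, zinc transporter 4 and phosphoserine aminotransferase. The authors' selection over all stages bears on these counts, since a gene that differs at both stages is more easily selected.

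**Figure D5:**
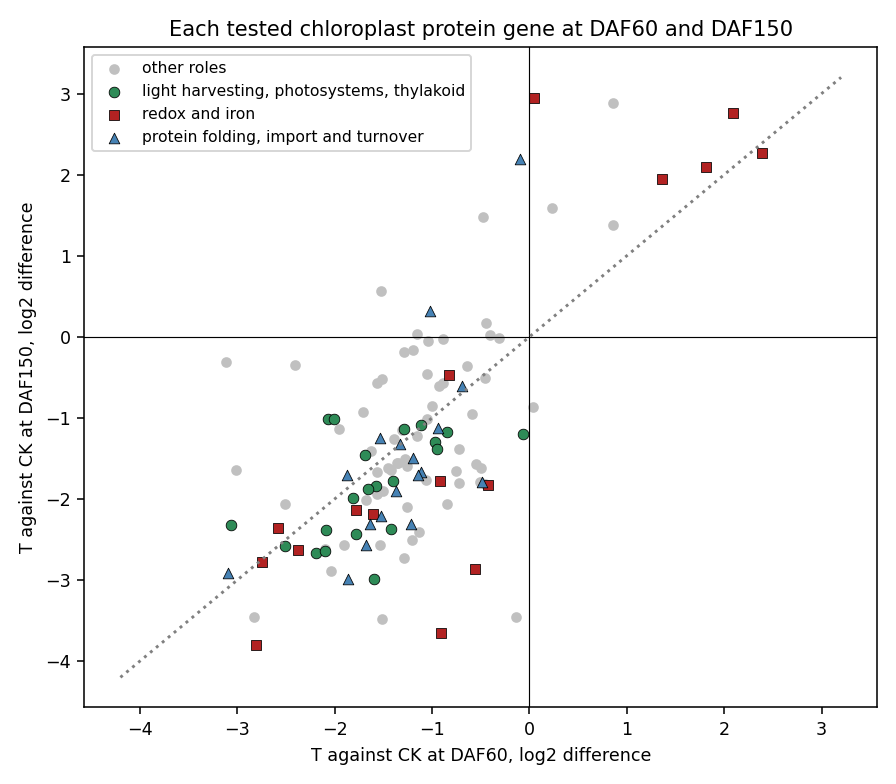
T against CK difference at DAF150 (vertical) and at DAF60 (horizontal) of each of the 119 tested genes, on the log2(FPKM + 1) scale, with marked roles in colour and the dotted line where both are equal. Most points lie in the lower left, where both differences are negative, and the 3 ferritins and TIC 32 lie at the upper right. The iron superoxide dismutase (0.05 at DAF60 and 2.95 at DAF150) and the copper-zinc one (-0.91 and -3.65) lie far apart on the vertical axis.

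The 10 listed genes that had been left out of the set, 9 of which carry a word of the rule, were all tested. Of these, 10 were lower at DAF60 and 9 at DAF150, with none passing at DAF30. Their medians of -3.03 and -3.52 at DAF60 and DAF150 lay below those of the 119 genes. A further 7 plastid and photosynthesis genes in the table have descriptions without the words of the rule, and of the 5 tested, 5 were lower at DAF60 and 2 at DAF150. Beside both groups, 61.9% of all genes tested were lower at DAF60 and 31.5% at DAF150. No difference between these groups of genes was tested.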

How the data were processed

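Total RNA from fruit skin was sequenced on the BGISEQ-500 platform. Clean reads were aligned by the authors with Bowtie2 against the apple genome GDDH13 v1.1, and FPKM per gene was deposited for each of the 18 libraries. The deposited values hold no fragment counts per gene, and the sequencing output that the study gives per library was not used here, so no counting interval was computed. Deposited log2 ratios (T over CK) and deposited q-values hold the authors' comparisons of pooled libraries. They served only to test how the table had been selected: for all 2856 genes the size of the log2 ratio was 1 or more and the q-value 0.001 or less. All per-library columns were matched to a sample.

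Values were taken as log2(FPKM + 1). Limma 3.58.1 (with statmod 1.5.0 under R 4.3.3) was run on genes that reached 1 FPKM in 3 or more libraries, with 1 mean per group for the 6 groups, 12 residual degrees of freedom, a variance trend and robust moderation, and p-values were adjusted by Benjamini-Hochberg over all 1399 genes tested in each of 9 comparisons. The model was tested on simulated data. SE is the standard error of limma. Alternatives were a pseudocount of 0.1, no filter or a minimum of 5 FPKM, libraries centred on their medians, a replicate block, fits to the libraries compared alone, and each library left out. Centring is itself distorted by the selection of the table. Figures were drawn with matplotlib 3.10.9.

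The members and gene lists were chosen with earlier results of these data known. Roles were assigned by words of the descriptions, and 28 genes were moved to another role by name once the table had been seen. Named genes are every tested light-harvesting, thylakoid and chlorophyll gene, the 3 with the highest mean in each other role, and genes in counts of 5 or fewer. Added were the 5 largest rises and falls of T against CK per stage and the 3 largest differences between stages in each direction. Both were taken among genes that passed and had a group mean of at least 5 FPKM. For T against CK that mean was of the higher group compared, and the T and CK libraries were not to overlap. Others are said to be named after their values were seen, as were MD09G1006500, MD11G1215200, MD08G1051600 and MD08G1051700. Descriptions are best matches, and 118 of 164 were to apple proteins.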

Additional observations from a re-analysis of the deposited data

Results flagged for a closer look

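The T against CK difference changed between neighbouring stages by limma's test for the following genes, which are the 3 largest changes in each direction. From DAF30 to DAF60 it moved down by the most for AAED1 (MD12G1128400, -2.82), lipoxygenase 2-1 (MD07G1004500, -2.74) and polyphenol oxidase (MD05G1320800, -2.72), and up by the most for the ferritin genes MD12G1178500 (2.08), MD12G1178200 (1.83) and MD04G1164500 (1.62), with adjusted p = 0.000841, 0.00282, 0.019, 0.00863, 0.0211 and 0.0211. From DAF60 to DAF150 it moved down by the most for ent-copalyl diphosphate synthase (MD11G1208700, -3.31), the copper-zinc superoxide dismutase (MD03G1128900, -2.74) and its copper chaperone (MD04G1072900, -2.30), with adjusted p = 0.000854, 0.00233 and 0.0024. It moved up by the most for the iron superoxide dismutase (MD07G1240700, 2.90), polyphenol oxidase (MD05G1320800, 2.81) and glutamyl endopeptidase (MD00G1179200, 2.30), with adjusted p = 0.00308, 0.0288 and 0.00208. For the polyphenol oxidase both T3 and CK3 were at 0.58 FPKM or less at DAF150.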

How the results depend on the processing

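Under other settings the number of genes that passed changed by over 1.5 times as follows. With a pseudocount of 0.1 it was 4 (7 with a pseudocount of 1) for T against CK at DAF30 and 63 (40) for bagged skin at DAF150 against DAF60. With only the libraries compared in the model it was 3 (7) at DAF30 and 22 (37) for unbagged skin at DAF60 against DAF30. With each library centred on its median it was 35 (94) at DAF60, 26 (76) for T/CK at DAF60 against DAF30 and 43 (22) for T/CK at DAF150 against DAF60. Leaving out each library in turn gave 3 to 9 genes at DAF30, 89 to 96 at DAF60, 93 to 98 at DAF150, 64 to 78 and 13 to 23 for the changes of T/CK, 22 to 38 and 55 to 67 within CK, and 42 to 64 and 29 to 44 within T.

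For the genes named by rule, no filter or a minimum of 5 FPKM each changed 1 call of T against CK, and a pseudocount of 0.1 changed 2 (1 lost, 1 gained). With only the libraries compared in the model 8 calls were lost, 2 of 5 at DAF30, 4 of 55 at DAF60 and 2 of 56 at DAF150, and 3 were gained. Centring reversed 14 differences at DAF60, of which 11 had passed and 3 (MD00G1179200, MD06G1160500 and MD11G1208700) passed only after centring. They became 1.06 (MD00G1179200), 0.0227 (MD01G1154100), 0.21 (MD02G1099400), 0.24 (MD02G1189600), 0.11 (MD02G1262200), 0.25 (MD03G1128900), 0.57 (MD05G1318900), 1.09 (MD06G1160500), 0.0101 (MD07G1022700), 0.23 (MD09G1003700), 0.31 (MD10G1012400), 1.02 (MD11G1208700), 0.19 (MD15G1410800) and 0.0497 (MD16G1283100). A further 23 calls were lost at DAF60 and 3 at DAF150 (MD02G1262200, MD09G1122500 and MD13G1200600), and 3 were gained, 2 at DAF60 and 1 at DAF150. Centring also turned the counts within CK at DAF60 against DAF30 to 9 higher and 26 lower, where they had been 28 and 9. Centring takes away the shift of the whole selected table by construction. It moves every gene of a library by the same offset. MD06G1160500 and MD11G1208700 were undetected or barely detected in T2, so their rises after centring show that offset and not a higher level.

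Replicate numbers gave no clear sign of a pairing of T with CK. Same-numbered libraries correlated at -0.35 to 0.17 in their deviations from the group means, 5 of 9 pairs over 0.1, and 3 of 9 T libraries matched their own number best. With so few libraries per group this cannot tell whether T and CK fruit came from the same trees. With a replicate block 7, 94 and 96 genes passed at DAF30, DAF60 and DAF150. The 216 results of named genes (72 genes at 3 stages) all kept their call or lack of one.

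The selected table limits every count, since genes that did not differ over all stages are not in it. The deposited FPKM hold no fragment counts, so low values have no stated precision. Reads of paralogs and of overlapping models cannot be told apart here.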
